A study of Mus musculus with 16 samples.

Results

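The mitochondrial ribosomal protein genes were taken as all rows of the expression table whose symbol is Mrpl or Mrps followed by a number and at most 1 further letter, without a hyphen. This rule used names alone and found 77 of 23179 listed genes, 48 with Mrpl symbols and 29 with Mrps symbols. All 77 passed the filter on low values, which left 21218 genes in the test. Every member had a single position in GENCODE M21 on GRCm38, was typed there as protein coding, and the members lay on 17 chromosomes.

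RNA was sequenced from the mammary fat pad on the side without a tumor in 4 groups of female wild-type C57BL/6NCrl mice (n = 4 libraries per group). The mice arrived at 8 weeks of age. CON-LFD mice received a low-fat diet with 10% of kcal from fat throughout, and DIO-HFD mice a high-fat diet with 60% throughout. DIO-LFD mice were moved from the high-fat to the low-fat diet after 15 weeks, and DIO-VSG mice underwent vertical sleeve gastrectomy, the excision of part of the stomach, at that time and were also given the low-fat diet. All mice that did not have the gastrectomy had a sham operation. All 4 groups were injected with E0771 mammary tumor cells in the opposite fat pad 22 weeks after the first randomization and were killed 4 weeks later, so no group was free of tumor. The labels give this cell line and a cancer cell type for every sample, although the tissue they name is normal mammary tissue.

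The mitochondrial ribosome translates the few proteins that mitochondrial DNA encodes, all of them subunits of the respiratory chain and of ATP synthase. Its protein subunits are encoded in the nucleus, made by cytosolic ribosomes and imported. In white adipocytes mitochondria are sparse, whereas thermogenic (brown and beige) adipocytes are packed with them.

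By their known place in the mammalian structure, 50 members belong to the large subunit, 30 with a counterpart in bacteria and 20 found only in mitochondria, and 26 belong to the small subunit, 16 and 10 respectively. Despite their symbols, Mrps18a and Mrps30 sit in the large subunit. Mrps18a is counted among the 20, although it is related to a bacterial ribosomal protein. Mrps36 is not a ribosomal subunit but a component of the oxoglutarate dehydrogenase complex of the citric acid cycle. The large-subunit protein Mrpl58, a peptidyl-tRNA hydrolase, was listed under its older symbol Ict1 and is therefore outside the rule.

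The promoters of 3 members are shown because these genes lead the comparisons below and carry different sets of letters for nuclear factors that are known to act on genes of mitochondrial function. The sequences are from RefSeq (GRCm38.p6), run from 250 bases before to 50 after the annotated start of the gene, 300 bases in all, and are printed 5' to 3' along the gene. Capitals mark matches, on either strand, to GCGCA, any base and GCGC in a row for NRF1, CCGGAAG for ETS factors such as GABPA, and AAGATGGC for YY1. The Mrps18a promoter (chr17:46110754-46111053, plus strand) holds 1 ETS match beginning at -26 and 1 YY1 match beginning at 12 from the start. The Mrpl32 promoter (chr13:14612988-14613287, minus strand) holds 1 NRF1 match beginning at -87 and 1 YY1 match, on the opposite strand, beginning at -242. The Mrps15 promoter (chr4:126046678-126046977, plus strand) holds none of these 3 motifs.
Mrps18a: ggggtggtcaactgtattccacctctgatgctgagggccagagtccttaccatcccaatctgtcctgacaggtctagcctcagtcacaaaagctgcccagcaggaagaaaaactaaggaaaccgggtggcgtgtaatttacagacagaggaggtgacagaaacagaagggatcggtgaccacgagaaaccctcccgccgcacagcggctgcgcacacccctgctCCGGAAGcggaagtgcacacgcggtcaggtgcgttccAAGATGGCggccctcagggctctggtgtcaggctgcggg
Mrpl32: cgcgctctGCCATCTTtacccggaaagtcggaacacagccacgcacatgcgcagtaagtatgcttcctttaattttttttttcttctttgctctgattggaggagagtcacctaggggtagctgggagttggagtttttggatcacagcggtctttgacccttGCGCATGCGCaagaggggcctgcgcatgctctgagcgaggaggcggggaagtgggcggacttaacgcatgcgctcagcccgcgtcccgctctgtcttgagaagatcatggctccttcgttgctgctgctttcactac
Mrps15: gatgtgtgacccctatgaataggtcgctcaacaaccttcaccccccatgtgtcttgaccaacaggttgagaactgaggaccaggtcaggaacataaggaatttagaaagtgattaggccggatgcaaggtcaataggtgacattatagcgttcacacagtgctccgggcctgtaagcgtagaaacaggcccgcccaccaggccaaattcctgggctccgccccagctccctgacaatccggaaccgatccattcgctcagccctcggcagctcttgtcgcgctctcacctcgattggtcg

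Promoter sequence was found for 68 members. The ETS letters were in 25 of them (36.8%), against 17% of the 11936 tested protein-coding genes with a promoter and 9.93% of all 27025 genes in the sequence table. The NRF1 letters were in 13 members (19.1%), against 9.78% and 5.19%, and the YY1 letters in 12 (17.6%), against 4.49% and 3.19%. At least 1 of these 3 motifs was in 42 of the 68 promoters (61.8%), compared with 27.6% of the tested protein-coding genes, and no ETS match overlapped a YY1 match in a member. The SP1 letters GGGCGG were in 34 members (50%), between the 63.8% of tested protein-coding genes and the 38.2% of all genes in the table. The median GC content was 58.2% in the members and 60.0% in the tested protein-coding genes. A match describes the letters in this window and is not a measured site.

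Each library held between 46907377 and 57610899 reads. A normalized count is the number of reads assigned to a gene divided by the size factor that the authors' normalization gave the library. In all 16 libraries 76 of the 77 members were above 100 normalized counts, and values of members lay between 70.6 and 4098. Together they took 0.175% to 0.202% of the reads of a library. Libraries of 1 group differed in other cell types. Summed over 10 B cell genes, the normalized count ran from 341 to 79655 in CON-LFD, 1147 to 105669 in DIO-HFD, 18854 to 43107 in DIO-LFD and 71892 to 83576 in DIO-VSG. Skeletal muscle genes were highest in DIO-LFD replicate 4, at 133067. The 12 adipocyte markers summed to between 659811 and 2209780, and no marker of any list was at 0 in any library. In bulk tissue, fewer cells of a type and less RNA per cell cannot be told apart.

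Levels were compared between genes as TPM (transcripts scaled to a common total), which divide by the median length of a gene's protein-coding transcripts in GENCODE M21 and so depend on which transcripts are used. The median member had 31.8 TPM. The highest were Mrps21, of the small subunit (117 TPM, chr3:95862634-95871519), Mrpl30 (97.5 TPM, chr1:37890477-37898535) and Mrpl33 (93.8 TPM, chr5:31596935-31664384), both of the large subunit. The lowest were Mrpl47 (5.26 TPM, chr3:32725397-32737605), Mrpl19 (5.76 TPM, chr6:81957851-81965958) and Mrpl1, a protein of the stalk through which spent tRNA leaves (6.97 TPM, chr5:96209493-96266727). Median levels were 33.2 TPM in the large-subunit members with a bacterial counterpart, 32.1 TPM in the mitochondria-specific ones, 31.4 TPM in the small-subunit members with a bacterial counterpart and 17.5 TPM in the 10 mitochondria-specific ones of the small subunit.

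The members varied together across libraries. Over the 16 libraries the median Pearson's r of the log2 normalized counts over 2926 pairs of members was 0.58, and it was 0.56 for deviations from the group means, with 92.0% of pairs above 0. These pairs share libraries and size factors, so the values are a description. Against the mean of the other members, 68 of 77 had r above 0.5, and the genes closest to it were Mrpl51 (0.98) and Mrpl10 (0.94), the latter the base of the stalk that recruits translation factors. Only Mrpl23 (-0.21), Mrpl19 (-0.20) and Mrpl24 (-0.12) had r below 0.

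The score of a library was the mean, over the 77 members, of the log2 normalized count minus the mean of that gene over all libraries. It was 0.10, 0.22, -0.16 and 0.04 in CON-LFD replicates 1 to 4. In DIO-HFD it was -0.25, -0.11, 0.04 and -0.17. DIO-LFD gave 0.05, 0.10, 0.02 and 0.13, and DIO-VSG gave -0.05, -0.15, 0.12 and 0.06. In DIO-HFD 3 of 4 libraries were thus below 0 and all 4 DIO-LFD libraries above it, but the groups overlapped, since CON-LFD replicate 3 was low and DIO-HFD replicate 3 was as high as CON-LFD replicate 4. In CON-LFD replicate 3, 7 of 77 members were above their own mean over the libraries, and in DIO-HFD replicate 3 there were 49. Scaled by library total and transcript length, the order of the groups differed: the summed level of the members was 2616 ± 66.6 TPM (SD, n = 4) in CON-LFD, 2725 ± 134 TPM in DIO-HFD, 2855 ± 131 TPM in DIO-LFD and 2696 ± 68.7 TPM in DIO-VSG. As a share of all reads, with no scaling by length, the members took 0.185% ± 0.00983 in CON-LFD, 0.180% ± 0.00421 in DIO-HFD, 0.194% ± 0.00617 in DIO-LFD and 0.191% ± 0.00920 in DIO-VSG. DIO-LFD was thus highest on all 3 scales and DIO-HFD lowest by the score and by the share of reads, whereas the summed TPM was lowest in CON-LFD.

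**Figure D1:**
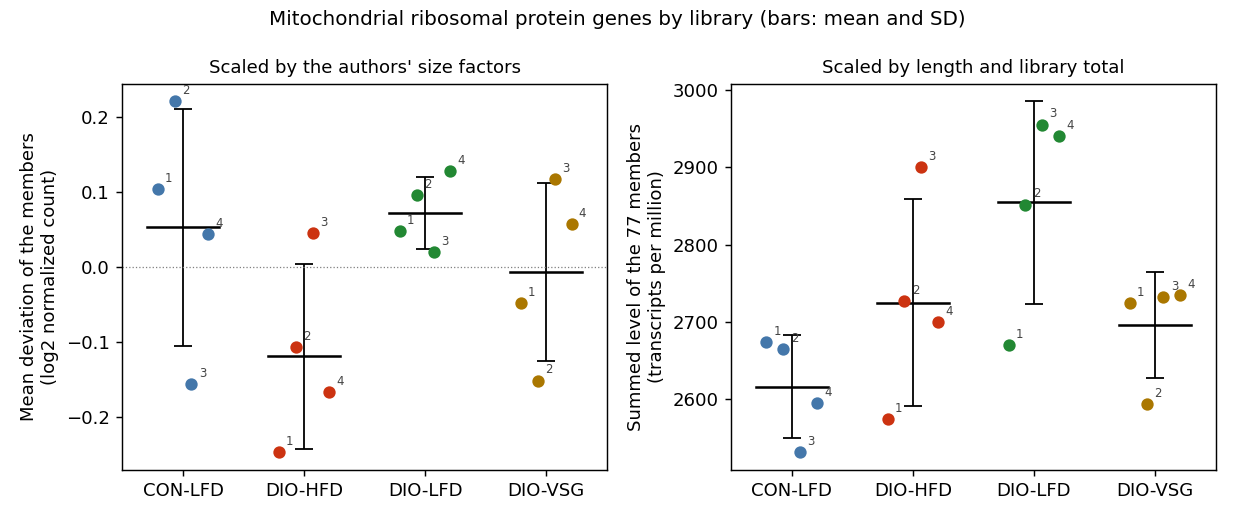
Level of the 77 mitochondrial ribosomal protein genes in each library. The left panel gives the mean log2 deviation with the size factors and the right panel the summed level in TPM. Numbered points are replicates and bars give the group mean and SD. The DIO-HFD mean is the lowest on the left, with replicate 3 at 0.04, whereas on the right it is above that of CON-LFD (2725 against 2616 TPM).

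Obesity was examined by setting DIO-HFD against CON-LFD. Most mitochondrial ribosomal protein genes had slightly fewer normalized counts in the obese mice, with 71 of 77 lower (against 47.3% of tested genes) and 6 higher (against 52.7%), though with 43 lower and 34 higher when scaled by total reads. The median log2 change was -0.16, whereas the median of all 21218 tested genes was 0.02. No single member passed an adjusted P value of 0.05 with limma (smallest 0.167), whereas 8 of all tested genes (0.0377%) did. With limma-voom on the recovered reads 0 members and 0 of all tested genes passed in each of the 6 comparisons. The count did depend on how libraries were weighed: when limma gave each library its own weight, 44 members passed in DIO-HFD relative to CON-LFD, as did 4196 of all tested genes, and 2 members and 128 tested genes passed without CON-LFD replicate 3. Against DIO-HFD, library weights gave 32 members and 1811 tested genes in DIO-LFD and 25 members and 3739 genes in DIO-VSG. Against CON-LFD they gave 1 member, compared with 4226 tested genes, in DIO-VSG. At an unadjusted P value below 0.05, 25 members were lower, against a background of 7.66% of tested genes, and 1 was higher, against 5.23% (12.9% in either direction). In 11 members all 4 DIO-HFD libraries were below all 4 CON-LFD libraries, where 3% of tested genes were so, and in 1 member they were above, against 1.76%. The direction is relative to the typical gene. Scaling by total reads moved the median of all tested genes from 0.02 to 0.16 and that of the members to -0.01, and 28 members changed sign. The number of members at an unadjusted P value below 0.05 was then 10, where 16.6% of tested genes were so. Relative to the median gene the members were at -0.18 with either scaling, and 72 of 77 were below it under each of the 3 scalings tried. The count of 26 members at an unadjusted P value below 0.05 rested unequally on the libraries and became 11 without CON-LFD replicate 2 (8.53% of tested genes), 15 without CON-LFD replicate 1 (9.13%), 12 without DIO-HFD replicate 1 (11.1%), 17 without DIO-HFD replicate 2 (14%) and 37 without CON-LFD replicate 3 (19.7%).

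The large subunit had a median log2 change of -0.17, with 46 of 50 members lower, and the small subunit one of -0.13, with 24 of 26 lower. Within the large subunit, the 20 mitochondria-specific proteins had a median of -0.24 (19 lower) and the 30 with a bacterial counterpart one of -0.15 (27 lower). Both classes of the small subunit were at -0.13. The difference between these classes was not tested. These medians and counts are with the size factors, and scaling by total reads moved the median of all members to -0.01.

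Mrps18a, one of 3 mammalian relatives of a single bacterial ribosomal protein, had the smallest P value (chr17:46110986-46128910). Its normalized count was 1285, 1386, 1232 and 1377 in CON-LFD and 969, 1041, 1058 and 1095 in DIO-HFD. In DIO-LFD it was 1436, 1312, 1350 and 1267, and in DIO-VSG 1171, 1135, 1370 and 1214. All 4 DIO-HFD libraries were thus below all 12 others. The log2 change from CON-LFD to DIO-HFD was -0.34 (SE 0.08, adjusted P = 0.167 with limma). The related Mrps18b and Mrps18c, of the small subunit, were at -0.05 (SE 0.12) and -0.23 (SE 0.10), and of these Mrps18b turned to 0.10 when scaled by total reads.

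Mrps15, a small-subunit protein with a bacterial counterpart (chr4:126046925-126055532), had normalized counts of 1988, 1742, 1454 and 1800 in CON-LFD, whereas DIO-HFD gave 1104, 1326, 1243 and 1254. DIO-LFD gave 1506, 1819, 1502 and 1706, and DIO-VSG 1451, 1366, 1777 and 1742. Again no DIO-HFD library reached the lowest library of another group. The log2 change was -0.50 (SE 0.12, adjusted P = 0.167).

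Mrpl32, a large-subunit protein whose maturation requires a protease of the inner mitochondrial membrane (chr13:14608184-14613165), had normalized counts of 1106, 1020, 867 and 1003 in CON-LFD, whereas those of DIO-HFD were 665, 801, 755 and 737. It had 806, 805, 732 and 873 in DIO-LFD and 884, 773, 995 and 970 in DIO-VSG. CON-LFD and DIO-HFD did not overlap, but DIO-LFD (lowest 732) and DIO-VSG (lowest 773) both reached into the range of DIO-HFD (highest 801). The log2 change from CON-LFD was -0.43 (SE 0.10, adjusted P = 0.182) in DIO-HFD and -0.31 (SE 0.10, adjusted P = 0.601) in DIO-LFD.

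Mrps36 had the most negative change among the members, -0.81 (SE 0.20, adjusted P = 0.185; chr13:100735955-100744659). The mean normalized count was 806 ± 209 (SD, n = 4) in CON-LFD and 449 ± 42.9 in DIO-HFD, and no library of one group reached the range of the other. DIO-LFD, at 575 ± 83.3, and DIO-VSG, at 567 ± 145, lay between, with log2 changes from CON-LFD of -0.46 and -0.50. Since Mrps36-ps1 and Mrps36-ps2 were also listed, reads could have been divided between them. Summed over the 3 rows, the count was 1058 ± 281 in CON-LFD and 608 ± 45.1 in DIO-HFD, a log2 change of -0.76 (two-sided exact permutation test, P = 0.0286, the smallest that 4 libraries against 4 can give). Mrps30 of the large subunit (chr13:118378381-118387252), which overlaps a gene on the opposite strand, was at 1778 ± 200 in CON-LFD, compared with 1436 ± 117 in DIO-HFD (log2 change -0.31, SE 0.10, adjusted P = 0.246), and these groups overlapped.

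Members of defined position in the ribosome varied. Mrpl12, the stalk protein that recruits translation factors (chr11:120484613-120489065), had a mean normalized count of 2018 ± 390 in CON-LFD, 1568 ± 306 in DIO-HFD, 2234 ± 344 in DIO-LFD and 2009 ± 332 in DIO-VSG, and its spread within a group was wide. Its partner Mrpl10 was at 2530 ± 321 in CON-LFD and 2129 ± 175 in DIO-HFD. Mrpl45, which holds the exit of the ribosome's tunnel at the inner membrane (chr11:97315716-97329920), was at 1435 ± 156 in CON-LFD and 1125 ± 53.6 in DIO-HFD, without overlap, a log2 change of -0.35 (SE 0.12, adjusted P = 0.257). Mrps12, of the decoding centre, was at 820 ± 120 and 760 ± 117, and Mrpl44, a protein with the fold of an RNA-cleaving enzyme, at 907 ± 120 and 873 ± 25. Both differences were smaller than the SD in CON-LFD, and both genes turned higher in DIO-HFD when scaled by total reads.

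The 6 members that were not lower in DIO-HFD were Mrpl23, Mrpl54, Mrpl33, Mrps26, Mrpl28 and Mrps28, with log2 changes of 1.06, 0.09, 0.08, 0.05, 0.03 and 0.00. Only Mrpl23, a protein at the exit of the ribosome's tunnel (chr7:142532686-142540747), stood apart, with normalized counts of 71, 212, 106 and 168 in CON-LFD, whereas DIO-HFD had 344, 290, 235 and 220 (log2 change 1.06, SE 0.42, adjusted P = 0.317). It was also the most variable member, with a coefficient of variation over the 16 libraries of 42.8%, compared with a median of 11.7%. A copy listed as Mrpl23-ps1 had more counts than Mrpl23 itself in every library, with means of 949 in CON-LFD and 772 in DIO-HFD. Summed over both rows, the count was 1088 ± 42.3 in CON-LFD, 1044 ± 93.3 in DIO-HFD, 1140 ± 20.1 in DIO-LFD and 1066 ± 66.1 in DIO-VSG. The log2 change of the sum from CON-LFD to DIO-HFD was -0.06 (two-sided exact permutation test, P = 0.40). The share of the sum given to Mrpl23 ran from 6.39% to 33.2% between libraries. With the copy counted in, the sum was on the same side of 0 as most other members, though its difference was smaller than the spread within the groups.

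**Figure D2:**
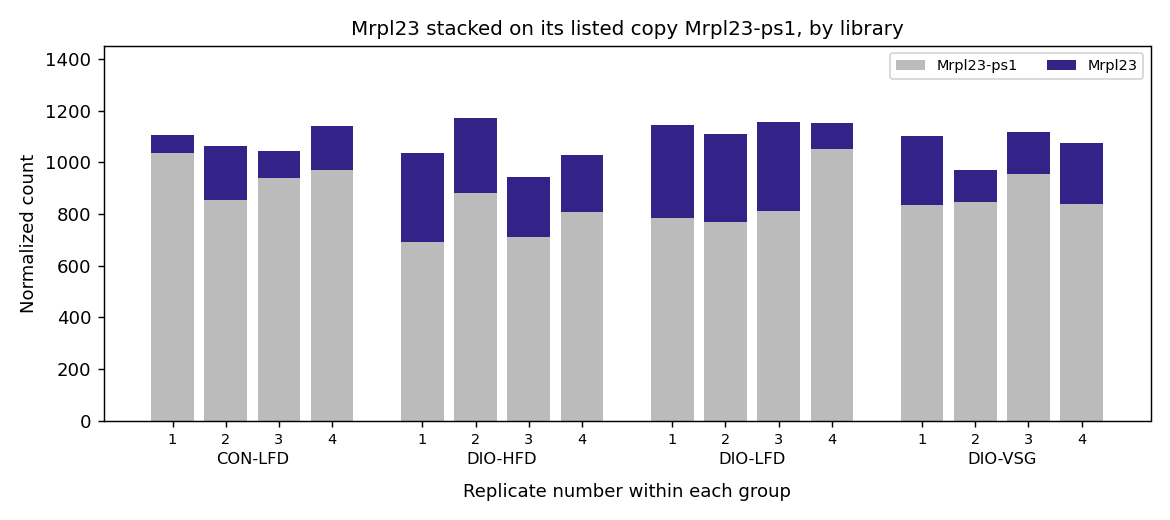
Normalized counts of Mrpl23 (dark) stacked on its listed copy Mrpl23-ps1 (grey) in each of the 16 libraries. The height of the stack lies between 944 and 1170 in every library, while the share of Mrpl23 runs from 6.39% to 33.2%.

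Weight loss by diet was examined by setting DIO-LFD against DIO-HFD. On the low-fat diet 74 of 77 members had more normalized counts than in DIO-HFD (against 51.6% of tested genes), with a median log2 change of 0.18 (0.01 for all tested genes), and 67 of 77 when scaled by total reads. The 3 lower ones (against 48.4% of tested genes) were Mrpl23, Mrpl19 and Mrpl40, at -0.07, -0.02 and -0.01. At an unadjusted P value below 0.05, 22 members were higher, against 5.37% of tested genes, and 0 were lower, against 3.16% (8.53% in either direction). No member passed the adjusted threshold with limma (smallest adjusted P = 0.296), and neither did any of the 21218 tested genes. All 4 DIO-LFD libraries were above all 4 DIO-HFD libraries in 19 members, where 3.01% of tested genes were so, and below them in 0, against 1.5%. The count of 22 moved both ways with the processing. It was 3 with thermogenic adipocyte markers in the model (3.57% of tested genes), 10 when scaled by total reads (9.47%), 11 with quantile normalization (8.33%), 14 with the replicate block (7.85%), 42 with B cell markers in the model (15.9%) and 54 with library weights (26.4%). The count became 36 without DIO-HFD replicate 3 (9.05% of tested genes). Omitting any other obese library lowered it, to 12 for replicate 1 (8.07%) and to 13 for replicates 2 (9.05%) and 4 (7.79%), and 13 was also the count when DIO-LFD replicate 4 was omitted (6.9%).

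Mrps18a again had the smallest P value, with a log2 change of 0.37 (SE 0.08, adjusted P = 0.296), and its 4 DIO-LFD libraries lay within the CON-LFD range or above it. For Mrps15 it was 0.40 (SE 0.12, adjusted P = 0.424). Mrpl37, a mitochondria-specific protein of the large subunit (chr4:107055874-107066868), had normalized counts of 1962, 1862, 1816 and 2020 in DIO-HFD, whereas DIO-LFD had 2150, 2341, 2216 and 2327. CON-LFD was at 2234 ± 173 and DIO-VSG at 2154 ± 88.3, and all libraries of the 3 other groups were above those of DIO-HFD. The change was 0.24 (SE 0.07, adjusted P = 0.451). Mrpl38, likewise specific to mitochondria (chr11:116131817-116138868), was at 1533 ± 81.3 in DIO-HFD and 1974 ± 196 in DIO-LFD, a log2 change of 0.36 (SE 0.12, adjusted P = 0.461).

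Mrps7, a protein of the head of the small subunit (chr11:115603925-115608036), stood out by its level in DIO-LFD. Its normalized counts were 2098, 2233, 1672 and 1939 in CON-LFD, 1668, 1826, 2186 and 1734 in DIO-HFD, 2315, 2353, 2187 and 2413 in DIO-LFD and 1760, 1870, 2106 and 2068 in DIO-VSG. All 4 DIO-LFD libraries were above those of DIO-HFD and DIO-VSG, by 1 normalized count at the closest (2187 against 2186). The log2 change from DIO-HFD to DIO-LFD was 0.33 (SE 0.11, adjusted P = 0.456) and that from DIO-LFD to DIO-VSG -0.25 (SE 0.11, adjusted P = 0.509). Exons of Mrps7 overlap Gga3 and Mif4gd on the opposite strand. The largest change in this comparison was that of Mrpl12, at 0.52 (SE 0.17, adjusted P = 0.463), with DIO-HFD replicate 3, at 2008, inside the DIO-LFD range of 1815 to 2532.

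**Figure D3:**
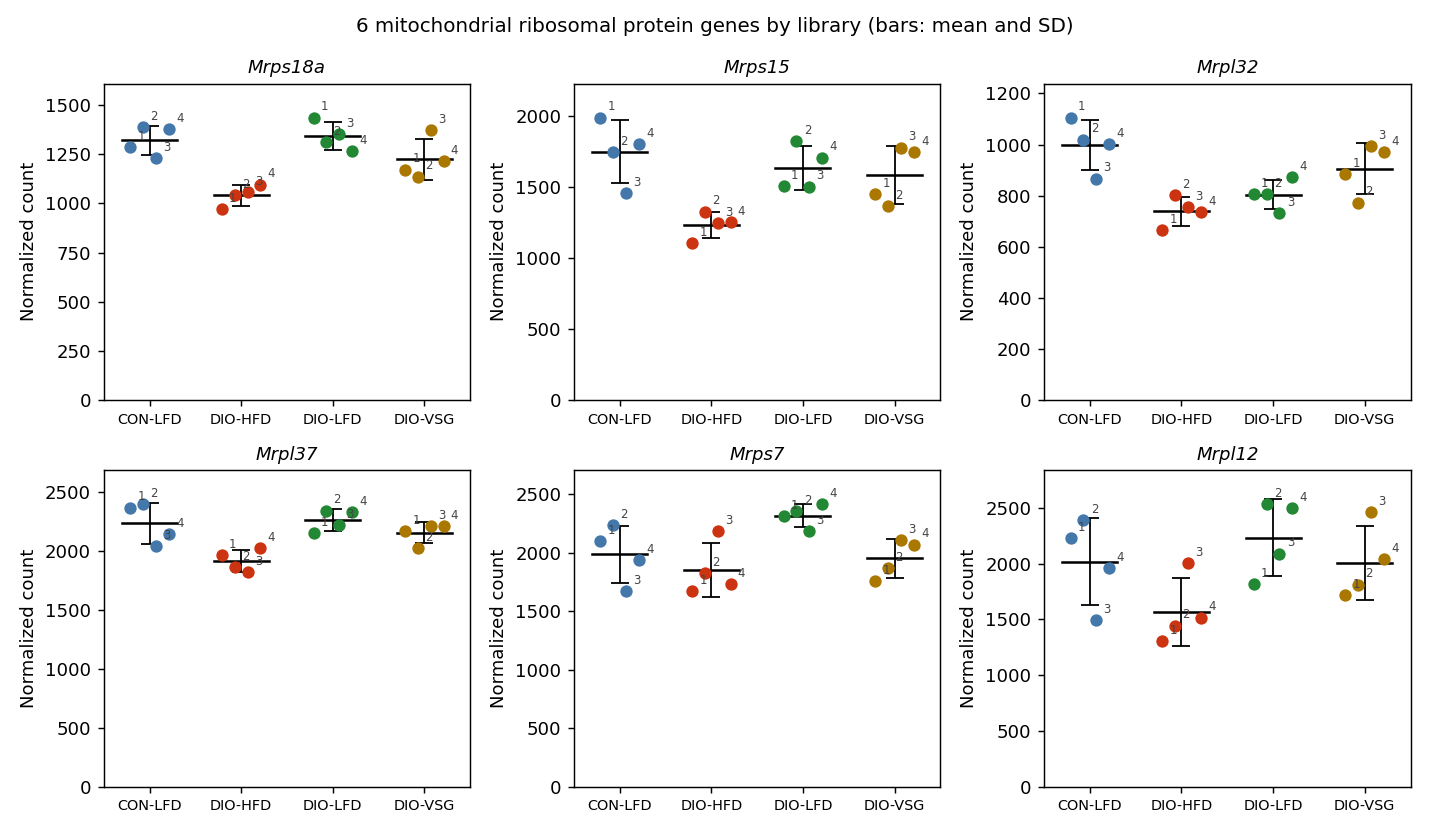
Normalized counts of 6 members in each library, with numbered replicates and bars for the group mean and SD. For Mrps18a, Mrps15 and Mrpl37 all 4 DIO-HFD libraries lie below the 12 others, whereas for Mrps7 DIO-LFD is highest and for Mrpl12 the groups overlap.

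DIO-VSG was compared with DIO-HFD to address weight loss after surgery. Members were higher in 65 of 77 cases after gastrectomy (against 52.5% of tested genes) and lower in 12 (against 47.5%), with a median log2 change of 0.13 against 0.02 for all tested genes, and in 61 when scaled by total reads. In this comparison 9 members were higher at an unadjusted P value below 0.05, against 5.05% of tested genes, and 0 were lower, against 8.12% (13.2% in either direction). The groups did not overlap in 7 members, all higher, where the share of tested genes was 2.37% higher and 4.22% lower. As in DIO-LFD, 0 members and 0 of all tested genes passed the adjusted threshold with limma, and the smallest adjusted P value of a member was 0.275. The count of 9 became 2 without DIO-VSG replicate 3 (7.47% of tested genes), 3 without DIO-HFD replicate 2 (7.87%) and 5 without DIO-VSG replicate 1 (9.39%) or 4 (11.6%). It was 14 without CON-LFD replicate 2 (13.8%) and 18 without DIO-HFD replicate 3 (8.67%) or DIO-VSG replicate 2 (12.9%).

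Mrps15 led this comparison (log2 change 0.36, SE 0.12, adjusted P = 0.275), followed by Mrps18a (0.23, SE 0.08, adjusted P = 0.298) and Mrpl32 (0.29, SE 0.10, adjusted P = 0.309). Mrpl24, which lines the tunnel exit on the large subunit (chr3:87919506-87923672), had normalized counts of 3723, 2863, 2510 and 3346 in DIO-HFD, whereas DIO-VSG had 3984, 3434, 4027 and 3559. It did not share the pattern of the other members, since CON-LFD, at 3286 ± 237, and DIO-LFD, at 3272 ± 80.4, were close to DIO-HFD, at 3110 ± 533, and its exons overlap Rrnad1 on the opposite strand. Mrps9 (chr1:42851233-42905683) had 1605 ± 50 in DIO-HFD, 1623 ± 60.2 in DIO-LFD and 1844 ± 140 in DIO-VSG, and its 4 DIO-VSG libraries were above those of both other groups. The change from DIO-HFD was 0.20 (SE 0.08, adjusted P = 0.347).

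Both ways of losing weight were then set against each other. Relative to DIO-LFD, 59 of 77 members were lower (against 52.7% of tested genes) and 18 higher (against 47.3%) in DIO-VSG, with a median log2 change of -0.08, against -0.02 for all tested genes, and 45 were lower when scaled by total reads. At an unadjusted P value below 0.05, Mrps9 was higher, against a background of 4.3%, and Mrps7 and Mrpl17 were lower, against 5.41% (9.71% in either direction). The adjusted threshold was passed by 0 members and 0 of all tested genes. Groups did not overlap in 2 higher members, Mrps9 and Mrpl24, where 12.9% of tested genes were so, and in 7 lower ones, against 5.83%. Mrpl17, at the tunnel exit (chr7:105803206-105811099), had a normalized count of 2029 ± 277 in DIO-LFD, compared with 1609 ± 178 in DIO-VSG, a log2 change of -0.33 (SE 0.15, adjusted P = 0.51). Mrpl36 was at 894 ± 70.1 and 791 ± 52.9, and Mrpl4 at 1790 ± 49.0 and 1611 ± 76.3 without overlap.

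Both groups that had lost weight were also set against CON-LFD. In DIO-LFD 41 members were higher (against 53.1% of tested genes) and 36 lower (against 46.9%), with a median log2 change of 0.02, as in all tested genes, but the split was 55 and 22 when scaled by total reads and 37 and 40 with quantile normalization. In DIO-VSG 20 were higher (against 47.8%) and 57 lower (against 52.2%), with a median of -0.06, compared with -0.02 for all tested genes, although the median turned to 0.05 and the split to 47 higher and 30 lower when scaled by total reads. It was also above 0 with the B cell score (0.06) or the adipocyte score (0.01) as a covariate, and all 10 B cell markers were higher in DIO-VSG than in CON-LFD, with a median of 3.95 and an unadjusted P value below 0.05 for each. At an unadjusted P value below 0.05, 4 members were higher in DIO-LFD, against 3.23% of tested genes, and 2 were lower, against 3.03% (6.26% in either direction). The higher ones were Mrps26, Mrpl33, Mrpl23 and Mrps7 and the lower ones Mrpl32 and Mrps36. Summed with their listed copies, Mrpl23 was at 0.07 (two-sided exact permutation test, P = 0.057) and Mrps36 at -0.41 (P = 0.143). With limma 0 members passed the adjusted threshold against CON-LFD in either group, while 1 tested gene (0.00471%) did in DIO-LFD and 0 in DIO-VSG. Mrps26, a mitochondria-specific protein of the small subunit (chr2:130563742-130568695), had a normalized count of 1206 ± 79.4 in CON-LFD, compared with 1415 ± 65.5 in DIO-LFD (log2 change 0.23, SE 0.07, adjusted P = 0.572), and together with Mrpl52 it was 1 of 2 members without overlap, where 1.73% of tested genes were higher without overlap and 1.81% lower. Mrpl33 was at 1438 ± 121 in CON-LFD and 1690 ± 117 in DIO-LFD, and an unnamed gene model overlaps it on the same strand. In DIO-VSG 0 members were higher than in CON-LFD at this threshold, against 10.2% of tested genes, and Mrps36 and Mrps30 were lower, against 7.55% (17.8% in either direction). No member was without overlap, where 2.59% of tested genes were higher and 4.43% lower. For Mrps30 the log2 change was -0.23 (SE 0.10, adjusted P = 0.268), for Mrpl39 -0.23 (SE 0.12, adjusted P = 0.300) and for Mrpl49 -0.19 (SE 0.11, adjusted P = 0.349).

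Genes that work beside the mitochondrial ribosome were counted from lists drawn up by function. In DIO-HFD relative to CON-LFD, 5 of 5 ribosomal subunits with other symbols (Dap3, Ptcd3, Chchd1, Aurkaip1 and Gadd45gip1) were lower, with a median log2 change of -0.11 and none at an unadjusted P value below 0.05, and Ict1 was at -0.06. Of 12 translation factors, 11 were lower (median -0.20), 4 of them at an unadjusted P value below 0.05, where 7.66% of all tested genes were lower and 5.23% higher. They included Tufm, the mitochondrial elongation factor that delivers tRNA (-0.35, SE 0.13), and Oxa1l, which inserts new chains into the inner membrane (-0.21, SE 0.08). Of 22 assembly and rRNA modification factors, 18 were lower and 4 higher (median -0.09). At this threshold 2 were lower and 2 higher, shares near those of all tested genes: Mettl15, a methyltransferase of the small-subunit rRNA (-0.73, SE 0.17, adjusted P = 0.167), and Gtpbp10 (-0.23, SE 0.08) were lower, and Mrm1 (0.27, SE 0.09) and Rpusd4 (0.26, SE 0.10) were higher. Medians were -0.05 for 17 aminoacyl-tRNA synthetases and -0.09 for 13 genes of mitochondrial DNA and RNA maintenance. The values of all these lists are with the size factors only. Scaling by total reads moved the median of all tested genes in this comparison from 0.02 to 0.16. In none of these lists did a gene pass the adjusted threshold. In DIO-LFD relative to DIO-HFD the medians of these lists had the opposite sign, between 0.08 and 0.14, and in DIO-VSG relative to DIO-HFD they were between 0.06 and 0.19.

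Of 10 nuclear regulators of mitochondrial biogenesis, 6 were lower and 4 higher in DIO-HFD than in CON-LFD (median -0.06). The coactivators Ppargc1a (-0.92, SE 0.35) and Ppargc1b (-0.83, SE 0.28) and the receptor Esrra (-0.42, SE 0.15) were lower at an unadjusted P value below 0.05, with adjusted P values of 0.297, 0.260 and 0.267. Pprc1, a coactivator of the same family, was higher at that threshold (0.40, SE 0.16, adjusted P = 0.314). The factors whose letters were searched in the promoters had small changes, 0.17 (SE 0.13) for Nrf1, -0.11 (SE 0.09) for Gabpa and -0.02 (SE 0.07) for Yy1. Relative to DIO-HFD, 5 of the 10 regulators were higher and 5 lower in DIO-LFD (median -0.0035), with 0 at an unadjusted P value below 0.05. In DIO-VSG 7 were higher and 3 lower (median 0.18). There 2 were higher at this threshold, Esrra and Ppargc1b, against 5.05% of tested genes, and 0 were lower, against 8.12%. Esrra was at 0.31 (SE 0.15) in DIO-LFD and 0.38 (SE 0.15) in DIO-VSG, and Ppargc1b at 0.59 and 0.68 (SE 0.28 each).

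A pair of larger gene families was set beside the members. The 74 nuclear-encoded subunits of the respiratory chain and ATP synthase, the complexes that the mitochondrial ribosome serves, had a median log2 change of -0.47 in DIO-HFD relative to CON-LFD. All 74 were lower (against 47.3% of tested genes), 49 of them at an unadjusted P value below 0.05 (against 7.66%). Relative to DIO-HFD they were at 0.47 in DIO-LFD (74 higher, against 51.6% of tested genes) and 0.39 in DIO-VSG (73 higher, against 52.5%). In each of these comparisons the members' median had the same sign and was smaller. The 79 cytosolic ribosomal proteins had medians of 0.17, -0.02 and 0.25 in the same comparisons. Relative to CON-LFD they were at 0.44 in DIO-VSG, with 67 higher at an unadjusted P value below 0.05, against 10.2% of tested genes. There the mitochondrial ones were at -0.06 with 0 higher.

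**Figure D4:**
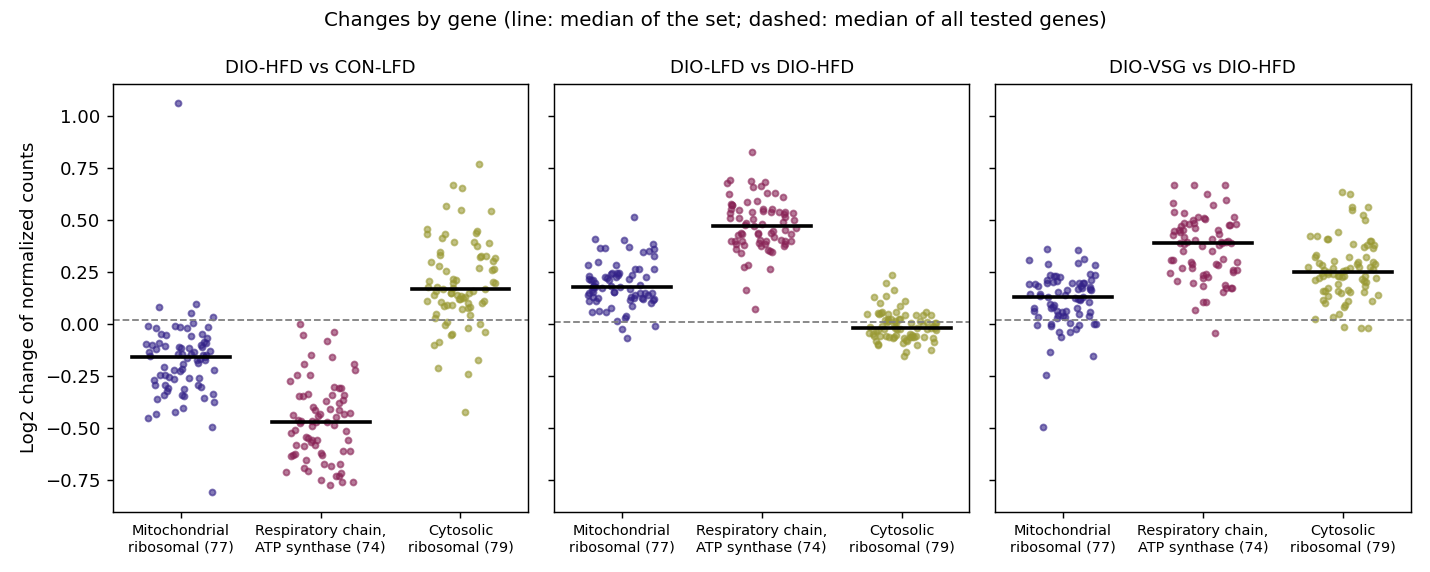
Log2 change of each gene in 3 gene families in DIO-HFD relative to CON-LFD and in DIO-LFD and DIO-VSG relative to DIO-HFD, with the size factors. Black lines are the medians of a family and the dashed line that of all tested genes. The members (median -0.16, 0.18 and 0.13) lie on the same side of the dashed line as the respiratory chain genes (-0.47, 0.47 and 0.39), and the single high point on the left is Mrpl23.

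Marker genes of other cells moved with the groups and with the libraries. All 7 thermogenic adipocyte markers were lower in DIO-HFD than in CON-LFD (against 47.3% of tested genes), with a median log2 change of -3.09. Of them, 3 had no overlap between the groups (against 3% of tested genes) and 5 had an unadjusted P value below 0.05 (against 7.66%). Their summed normalized count was 300 to 998 in DIO-HFD, 2057 to 51347 in CON-LFD, 2620 to 9108 in DIO-LFD and 1035 to 37158 in DIO-VSG, and none was at 0 in any library. The library with the highest sum, CON-LFD replicate 2, had the highest member score (0.22), and that with the lowest, DIO-HFD replicate 1, had the lowest (-0.25). Between these the order was looser: DIO-HFD replicate 3 had the second lowest sum (757) but ranked 8 of 16 in member score (0.04), and DIO-LFD replicate 4, with a sum of 2620, had the second highest score (0.13). With the score of these markers as a covariate, a choice made after seeing the data, the median of the members in DIO-HFD relative to CON-LFD was -0.01, compared with -0.16 without it, and 4 members were at an unadjusted P value below 0.05, against 3.37% of tested genes. Likewise the median was 0.03 in DIO-LFD and -0.03 in DIO-VSG relative to DIO-HFD, with 3 members (3.57% of tested genes) and 2 members (20.3%) at this threshold. In DIO-HFD relative to CON-LFD the covariate also lowered the share of all tested genes at this threshold, from 12.9% to 3.37%. All DIO-HFD libraries had lower sums than every other library, so this fit cannot separate the markers from the group. The part of thermogenic adipocytes in the members' levels was not tested. B cell markers were also uneven. DIO-HFD replicates 1 and 4 and CON-LFD replicate 3, with sums of 105669, 65634 and 79655, had low member scores, while CON-LFD replicate 2, at 341, had the highest. The 4 DIO-VSG libraries had sums in the same range, 71892 to 83576, with member scores on both sides of 0, and DIO-VSG replicate 3, at 83478, ranked 3 of 16 in member score (0.12). With the score of B cell markers in the model, the median in DIO-HFD relative to CON-LFD was -0.12, and 42 members, against 15.9% of tested genes, were at an unadjusted P value below 0.05 in DIO-LFD relative to DIO-HFD. Mammary epithelial markers were lower in DIO-HFD than in CON-LFD in 8 of 8 cases, with a median of -0.79. Their median was 0.70 in DIO-LFD relative to DIO-HFD, where 5 of 8 were higher at an unadjusted P value below 0.05, against 5.37% of tested genes. Cell cycle genes were lower than in DIO-HFD in 8 of 8 cases in DIO-LFD (median -1.17) and likewise in DIO-VSG (-0.82). In DIO-VSG relative to DIO-HFD, T cell markers had a median of 2.20, with 11 of 11 higher, B cell markers one of 2.78, with 10 of 10 higher, and endothelial and macrophage markers were lower in 5 of 5 (-0.69) and 9 of 10 cases (-0.67). The part of the mammary epithelial, cell cycle, T cell, endothelial and macrophage markers was not tested. Skeletal muscle markers were lower in 8 of 8 cases in DIO-HFD relative to CON-LFD (median -1.88), and relative to DIO-HFD they were higher in 8 of 8 cases in DIO-LFD (1.99) and 7 of 8 in DIO-VSG (1.85). With their score as a covariate the medians of the members in these comparisons were -0.15, 0.20 and 0.13. Adipocyte markers were lower in 10 of 12 cases in DIO-HFD relative to CON-LFD (median -0.44, none at an unadjusted P value below 0.05), and relative to DIO-HFD their medians were 0.40 in DIO-LFD and -0.01 in DIO-VSG. When their score entered the model as a covariate, also chosen after seeing the data, the medians of the members were -0.11, 0.14 and 0.15.

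**Figure D5:**
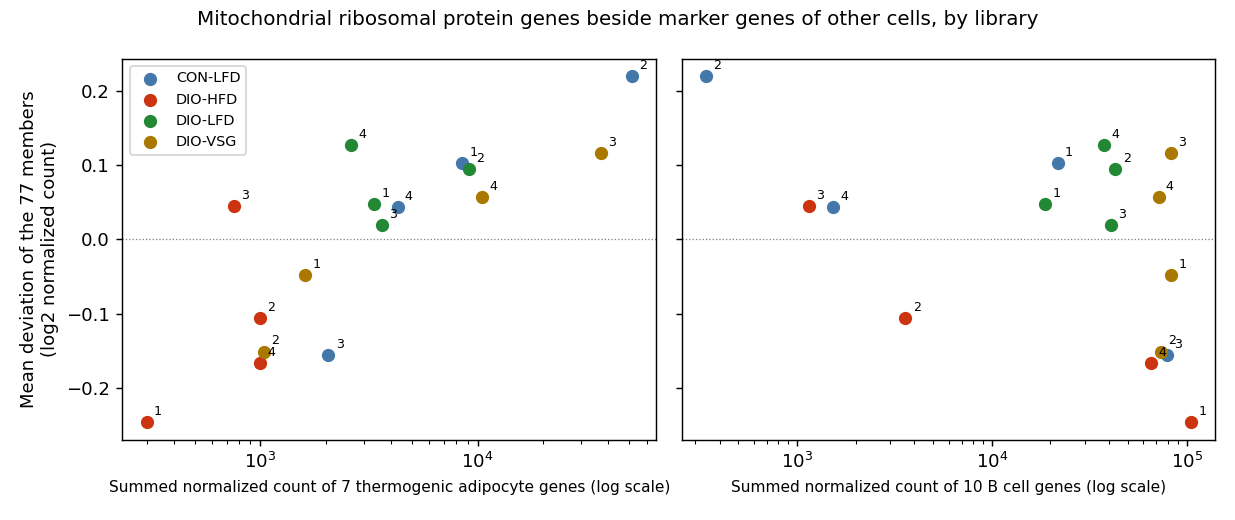
Mean log2 deviation of the 77 members in each library plotted against the summed normalized count of 7 thermogenic adipocyte genes (left) and of 10 B cell genes (right), both on log axes. Numbers are replicates. The DIO-HFD libraries have the 4 lowest thermogenic sums (300 to 998), and DIO-HFD replicate 3 has a member score of 0.04 at a B cell sum of 1147.

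Some values carry limits from the counting. Exons of 32 members overlap exons of another gene, and for 8 of them (Mrpl3, Mrpl33, Mrpl51, Mrpl53, Mrps6, Mrps18c, Mrps24 and Mrps34) such a gene lies on the same strand. Mrps6, which shares exons with Slc5a3, ran from 1562 to 4098 normalized counts and had the third highest coefficient of variation (28.4%), after Mrpl23 and Mrps36. Mrpl48 also has a listed copy, which held a mean of 134 normalized counts. The sum of both rows for Mrpl48 was 1753 ± 213 in CON-LFD and 1505 ± 129 in DIO-HFD (exact permutation test, P = 0.114).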

How the data were processed

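Total RNA of mammary adipose tissue was sequenced in 16 libraries with a stranded kit. The authors' methods name STAR, salmon and a Gencode annotation whose release is not given in the sources used here, whereas the submitters' processing notes name TopHat2 2.0.7, HTSeq 0.5.3p9 and mm10. The deposited values, described as normalized counts, were on a log2 scale after the authors' variance-stabilizing transformation in DESeq2. The design had assumed normalized counts, so the transformation was inverted. Dividing by each library's step gave whole reads for 100% of values (tolerance 0.01), with totals of 46907377 to 57610899 and size factors of 0.9036 to 1.2204. No batch was given in the labels, and 0 columns were left without a sample.

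Members and gene lists were chosen with earlier results of these data known. Genes that reached 10 normalized counts in 4 or more libraries entered a single linear model (limma 3.58.1 with a mean-variance trend, in R 4.3.3). The response was log2(normalized count + 1), the 4 groups were its sole predictor, and the 16 libraries shared 1 estimate of spread. Tests were two-sided, with Benjamini-Hochberg adjustment over all 21218 genes and a threshold of 0.05. The fit was also run on simulated counts with known changes, drawn independently for each gene at a single dispersion. Cell content did not differ between the simulated libraries, so that run does not measure power or error in the real ones. Fold changes on this scale understate the change of low genes. Sums of a member and its copies were compared by an exact permutation test, chosen after their values were seen. Named were the 5 members with the smallest P value in each of 6 comparisons, the 3 highest and 3 lowest per length, members of defined role, members that moved against the others and members of counts of 5 or fewer. Mrpl52, Mrps6, Mrpl48, Mrpl51, Mrpl40 and the members of other small counts were named after their values were seen. Nrf1, Gabpa and Yy1 were named for their promoter letters. The sample descriptions carry a number of their own for each library, taken as separate mice, and P values measure the spread between these samples.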

Additional observations from a re-analysis of the deposited data

Results flagged for a closer look

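In groups of 4 libraries, 6 values of named members lay further from the other 3 than Dixon's 95% limit for 4 values allows, among 124 groups examined, and chance flags about 1 in 20 groups, or 6.2 here. Mrpl10 had 2390 normalized counts in DIO-HFD replicate 3, against 2026 to 2062 in the other DIO-HFD libraries. Mrpl23 had 100.1 in DIO-LFD replicate 4, against 342 to 361, and in that library the copy Mrpl23-ps1 had 1052, its highest value in any library. Mrpl44 had 1031 in DIO-LFD replicate 1, against 904 to 925. Mrpl45 had 1045 in DIO-HFD replicate 1, against 1145 to 1155. Mrps18c had 834 in CON-LFD replicate 2, against 731 to 746. Mrps9 had 1530 in DIO-HFD replicate 2, against 1619 to 1635.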

How the results depend on the processing

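The main counts of members at an unadjusted P value below 0.05 were 26 (DIO-HFD against CON-LFD), 22 (DIO-LFD against DIO-HFD), 9 (DIO-VSG against DIO-HFD), 3 (DIO-VSG against DIO-LFD), 6 (DIO-LFD against CON-LFD) and 2 (DIO-VSG against CON-LFD), and the values below follow this order where all are given. Weighting each library by its fit gave 57, 54, 50, 14, 11 and 12, with 44, 32, 25, 0, 0 and 1 members past the adjusted threshold, while 4196, 1811, 3739, 184, 53 and 4226 of all tested genes passed it and 37.5%, 26.4%, 33.9%, 25.9%, 17% and 37.4% were at an unadjusted P value below 0.05. Scaling by total reads gave 10, 10 and 5 for the first 3 comparisons (16.6%, 9.47% and 14.3% of tested genes) and 11 and 4 for the last 2 (6.15% and 16.7%), and a median in DIO-HFD relative to CON-LFD of -0.013. Quantile normalization gave 11 in DIO-LFD against DIO-HFD (8.33%). Fits of only the 8 libraries compared gave 13 in DIO-HFD against CON-LFD (7.94%), 8 in DIO-VSG against DIO-LFD (25.3%, with 0 members and 1533 tested genes past the adjusted threshold), and 3 in DIO-LFD (4.9%) and 0 in DIO-VSG (20.7%) against CON-LFD. The B cell score as a covariate gave 42 and 26 in DIO-LFD and DIO-VSG against DIO-HFD (15.9% and 10.2% of tested genes) and 14 in DIO-LFD against CON-LFD (13.3%), and the skeletal muscle score gave 14 in DIO-VSG against DIO-HFD (16.7%). The covariates that follow were added after seeing the data. The adipocyte score gave 15 in DIO-VSG against DIO-HFD (18.4% of tested genes), 1 against DIO-LFD (5.16%) and 0 against CON-LFD (7.42%). The thermogenic adipocyte score gave 4, 3, 2, 8 and 10 for the first 5 comparisons, against 3.37%, 3.57%, 20.3%, 12.3% and 6.32% of tested genes, and medians of -0.0060, 0.031 and -0.032 for the first 3. The cause of these moves was not tested.

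Libraries of the same replicate number deviated together in 9 of 24 pairs of libraries (r above 0.1, range -0.61 to 0.53), so the numbers were not taken to pair the samples. With the replicate block the count was 14 in DIO-LFD (7.85% of tested genes) and 5 in DIO-VSG (11.8%) against DIO-HFD, 0 in DIO-VSG against DIO-LFD (8.81%), and 3 in DIO-LFD (5.77%) and 1 in DIO-VSG (16%) against CON-LFD.

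Leaving out 1 library at a time gave counts of 11 to 37, 12 to 36, 2 to 18, 1 to 5, 3 to 9 and 0 to 12, and medians of -0.22 to -0.12, 0.14 to 0.24, 0.07 to 0.18, -0.12 to -0.04, -0.04 to 0.06 and -0.13 to -0.01. Without CON-LFD replicate 3, which gave the 12 (against 30.5% of tested genes, 873 of them past the adjusted threshold), 2 members passed the adjusted threshold in DIO-HFD against CON-LFD, Mrps36 (adjusted P = 0.040) and Mrps15 (adjusted P = 0.0464). In DIO-VSG against DIO-LFD the 1 came without replicate 1 of CON-LFD or DIO-VSG, replicate 4 of DIO-LFD or either of replicates 2 and 4 of DIO-HFD, with 5.11% to 10% of tested genes, and the 5 without CON-LFD replicate 3 (11.7%). In DIO-VSG against CON-LFD the 0 came without CON-LFD replicate 1 or 4 or DIO-VSG replicate 2 (8.95% to 12.6%). In DIO-LFD against CON-LFD the 3 came without CON-LFD replicate 4 (5.34%) or DIO-LFD replicate 1 (5.69%). The 5 members with the smallest P value in each comparison were refitted under 29 alternatives, 870 fits in all. Of these fits, 852 kept their direction and side of the adjusted threshold, 18 passed it, 16 of them with library weights, and 0 reversed. These members were picked by P value in the same data. Other named members, such as Mrps12 and Mrpl44, did change sign when scaled by total reads. Mrpl23 was the only member under 100 normalized counts in a library.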
